A study of Mus musculus with 12 samples.

Results

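The question addressed here was whether iron and macrophages together changed gene expression in a liver cell line by more or less than the sum of what each did alone. The cells were BNL CL.2, a line derived from mouse liver, cultured for 24 h, and their RNA was read on 12 Affymetrix arrays. The cells faced a culture insert that held either RAW 264.7 cells, a mouse macrophage line, or more BNL CL.2 cells. In the group RAW_FAC the insert held macrophages and 100 micromolar ferric ammonium citrate (FAC), a soluble iron salt, was present. The group RAW had the macrophages without the salt, the group FAC had the salt with BNL CL.2 cells in the insert, and the group alone had neither. Each of the 4 groups had 3 arrays, with replicate numbers 1 to 3. All 12 arrays of the series and all 18194 of the 18194 genes that could be assigned a probe set naming no other gene were used, each through 1 probe set. For each gene and replicate number the departure was the change with iron beside macrophages minus the change with iron without them, (RAW_FAC - RAW) - (FAC - alone), on the log2 scale. It equals the joint change, RAW_FAC - alone, minus the sum of the single changes, so a value of 0 means that the fold changes multiplied.

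Values were log2 signals from 2.42 to 14.6, with array medians of 5.63 to 5.68, and the number of arrays limits the precision. Signals of different probe sets are not comparable as amounts of RNA. Of 16 measured hepatocyte markers, 2 had a mean signal above the median of all genes, 6.82, and Alb, the gene of serum albumin, lay between 5.02 and 5.38 on the 12 arrays, so most of these markers were dim in the line. The mean signal of 24 macrophage markers was 5.31 to 5.39 in RAW_FAC, 5.31 to 5.40 in RAW, 5.29 to 5.34 in FAC and 5.27 to 5.32 in alone, and 3 of the 24 lay above 6.82. Their part in the results was not tested. The 3′ minus 5′ difference of the Gapdh control probe sets was -0.05 to 0.11, and that of Actb was 0.32 to 0.42. Whether the 3 arrays of a group stand for separate cultures is not stated in the labels, so a p-value here reflects variation among these arrays, which may be technical.

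Cells sense iron through iron regulatory proteins, which protect the messenger RNA of the transferrin receptor when iron is scarce and let it decay when iron is plentiful. Iron also promotes oxidative stress, to which cells answer through the transcription factor NRF2 with enzymes of glutathione and quinone metabolism. Macrophages on the far side of a porous insert can act on neighbouring cells through secreted proteins. Type I interferon induces antiviral genes, while tumour necrosis factor and interleukin 1 activate NF-kB, which turns on chemokine genes.

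No gene departed from the sum at the threshold used, a Benjamini-Hochberg adjusted p below 0.05 in limma. Without a block, 0 of 18194 genes (0%) lay above the sum and 0 (0%) below it, with a smallest adjusted p of 1.00. With the replicate number as a block, an additive term that removes what arrays of the same number share, the counts were again 0 and 0 (0% each, smallest adjusted p = 0.999). A limma fit to the 3 departures per gene, 1 per replicate number, also called 0 and 0 (smallest adjusted p = 0.855). At an unadjusted p below 0.05 there were 540 genes without the block, 168 above the sum and 372 below. There were 790 with the block and 1030 with 1 departure per number, and 5% of all genes is 909.7. The same test on all 45101 probe sets, and on the 10092 with no symbol or several, called 0 in each (1382 and 402 at an unadjusted p below 0.05).

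The departures were small. They ran from -0.72 for Mycn, a MYC family transcription factor, to 0.63 for Cxcl5, a neutrophil-attracting chemokine. Their median was 0.011, with 54.3% of genes above 0, and the middle 90% lay between -0.21 and 0.20. In absolute size the median was 0.07, with 18 genes over 0.5 and 0 over 1. What the arrays could show is set by the 95% interval of each gene. That interval lay wholly within -1 and 1 for 18091 genes (99.4%) and within -0.5 and 0.5 for 15400 (84.6%), or for 16390 (90.1%) with the block. On either side of the departure it reached a median of 0.267 without and 0.227 with the block. These are intervals of single genes, and a departure has to be larger to pass after adjustment over 18194 genes.

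**Figure D1:**
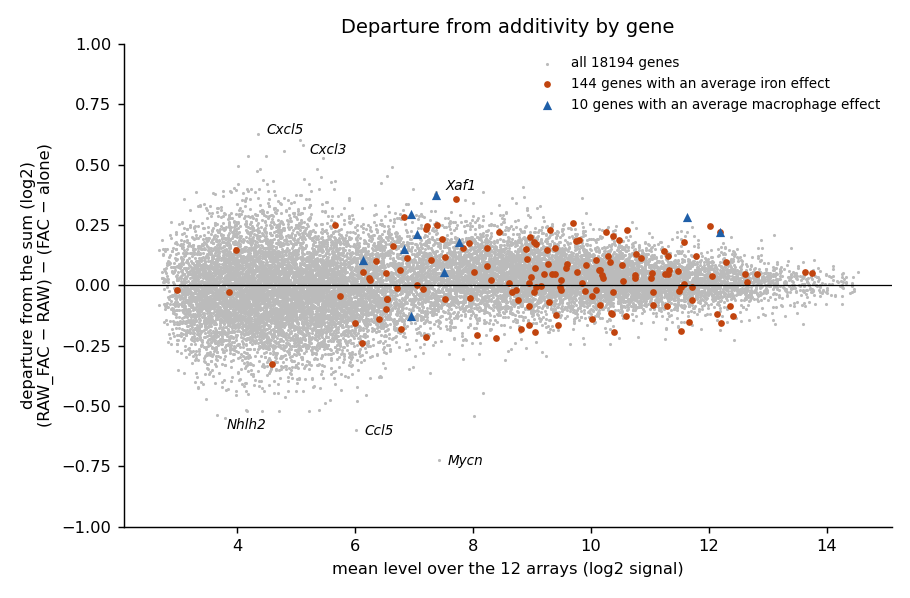
Departure from the sum (log2, vertical axis) of each of the 18194 genes against its mean signal over the 12 arrays (log2, horizontal axis). Grey points are all genes, orange points the 144 genes with an average iron effect and blue triangles the 10 with an average macrophage effect, both from the fit with the replicate block. The spread narrows as the signal rises, the orange points lie between -0.33 and 0.36, and no point reaches 1 or -1.

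The 3 replicate numbers, which share no array, gave departures with little in common. Across genes, which are not independent replicates, the departures of numbers 1 and 2 correlated at -0.0408, of numbers 1 and 3 at 0.0894 and of numbers 2 and 3 at 0.0475. The average change with iron, taken the same way, correlated at 0.154, 0.0701 and 0.309, and the average change with macrophages at 0.197, 0.0979 and 0.333. In 4707 genes (25.9%) the departure had the same sign at all 3 numbers. Signs of 3 unrelated departures also agree in a share of genes, so this count by itself shows no repeated departure. Averaged over genes, the mean square of the departure was 0.0110, against a residual of 0.0118. The mean squares of iron, macrophages and replicate number were 0.0235, 0.0194 and 0.0376. The replicate number thus had the largest mean square of these terms.

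Genes were chosen next by their average change with iron, over both settings, or by their average change with macrophages, neither of which uses the departure. Without the block limma called 0 genes (0%) higher and 1 gene (0.0055%) lower with iron, and 2 (0.011%) higher and 0 (0%) lower with macrophages. With the replicate block it called 116 (0.638%) higher and 28 (0.154%) lower with iron, and 10 (0.055%) higher and 0 (0%) lower with macrophages. With 1 difference per number there were 5 (0.0275%) higher and 1 (0.0055%) lower with iron, and 0 (0%) either way with macrophages. The blocked counts turn on single arrays. Without any 1 array the 116 became 37 (without FAC replicate 2) to 88 (without RAW_FAC replicate 3), and the 28 became 7 (without FAC replicate 2) to 23 (without FAC replicate 3). The 10 became 15 to 24 without replicate 1 of any group, 3 without FAC replicate 3, and 0 without replicate 2 of any group or replicate 3 of RAW_FAC, RAW or alone. Without all 4 arrays of number 2 the blocked fit called 0 genes in any of these directions. The blocked genes serve below as the set in which a departure can be read against a sizeable single change. They were also chosen for a small residual spread, so their blocked intervals may be too narrow.

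Tfrc, which encodes the receptor that takes up transferrin-bound iron, fell with iron to nearly the same extent in both settings. Its signals were 12.31, 12.18 and 11.55 in RAW_FAC and 13.40, 13.16 and 13.07 in RAW, and 12.35, 12.14 and 11.46 in FAC against 13.28, 13.29 and 13.11 in alone. The 6 arrays with iron all lay below the 6 without it, with or without macrophages. The change with iron was -1.20 beside macrophages and -1.25 without them, and that with macrophages alone was -0.01. The joint change of -1.21 stood beside a sum of -1.26, a departure of 0.05 ± 0.18 (SE with the block; 95% interval -0.35 to 0.45). Over its 6 probe sets the departure ran from -0.02 to 0.22. Tfrc was the 1 gene that the average iron effect called without the block (0.0055%).

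Slc7a11, the transport subunit of the cystine-glutamate exchanger, had signals of 7.35, 8.65 and 8.31 in RAW_FAC and 6.47, 7.52 and 7.47 in RAW. They were 7.40, 8.33 and 7.79 in FAC and 6.33, 7.44 and 7.24 in alone. Replicate 1 was the lowest in every group, and within each number the iron array lay above its partner. The joint change was 1.10, and the single changes of 0.83 with iron and 0.15 with macrophages summed to 0.98. The departure of 0.12 had an interval of -0.22 to 0.46 with the block and of -1.04 to 1.28 without it, and a dimmer second probe set gave -0.31. Leaving out 1 array moved the blocked value to between -0.03 (FAC replicate 3 left out) and 0.25 (FAC replicate 1 left out). Gclc, the catalytic subunit of the enzyme that makes the precursor of glutathione, had signals of 11.91, 12.01 and 11.96 in RAW_FAC and 11.37, 11.51 and 11.56 in RAW. In FAC they were 11.94, 12.10 and 11.99, and in alone 11.50, 11.76 and 11.69. The iron groups overlapped each other and both lay above the groups without iron. The change with iron was 0.48 beside macrophages and 0.36 without, and the departure was 0.09, 0.16 and 0.11 at numbers 1, 2 and 3 (adjusted p = 0.999 in limma with the block).

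**Figure D2:**
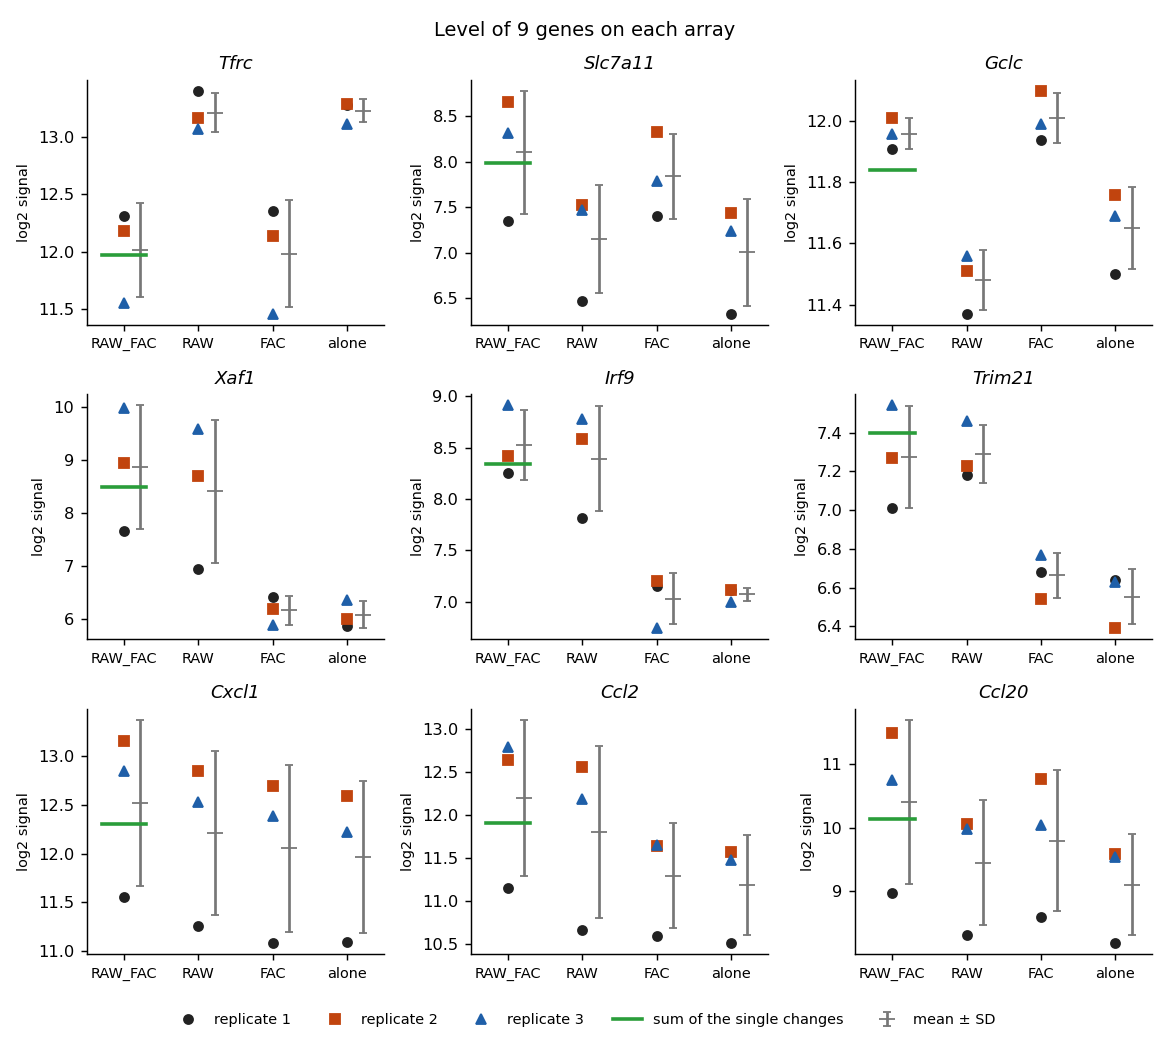
Log2 signal of 9 genes on each of the 12 arrays (vertical axis), by group (horizontal axis). Symbols mark the replicate numbers, grey bars the mean ± SD of 3 arrays, and the green line over RAW_FAC the level that the sum of the single changes gives. The RAW_FAC mean lies above the line for every gene but Trim21, where it lies below, and by as little as 0.05 in Tfrc. In Ccl2, Cxcl1, Ccl20 and Slc7a11 replicate 1 sits below the others in every group.

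Across the 144 genes called in the average iron effect, all 144 changed in the same direction in both settings, which the choice by average change favours. The change was larger beside macrophages in 96 (66.7%), against 56.5% of all genes tested. The median departure in the direction of the iron effect was 0.047, against 0.017 for all genes, and 0.04, 0.05 and 0.06 at numbers 1, 2 and 3. For the 116 higher genes the median change was 0.38 beside macrophages and 0.32 without, and for the 28 lower genes -0.39 and -0.30. None passed in the departure, and at an unadjusted p below 0.05 there was 1 gene (0.694%) without the block and 9 (6.25%) with it, against 2.97% and 4.34% of all genes. For 88 of the 144 the 95% interval without the block left out a change present in 1 setting only. The bound for this was set from the estimated average change, taken as known. The genes were chosen by that average, so the count may be too high.

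**Figure D3:**
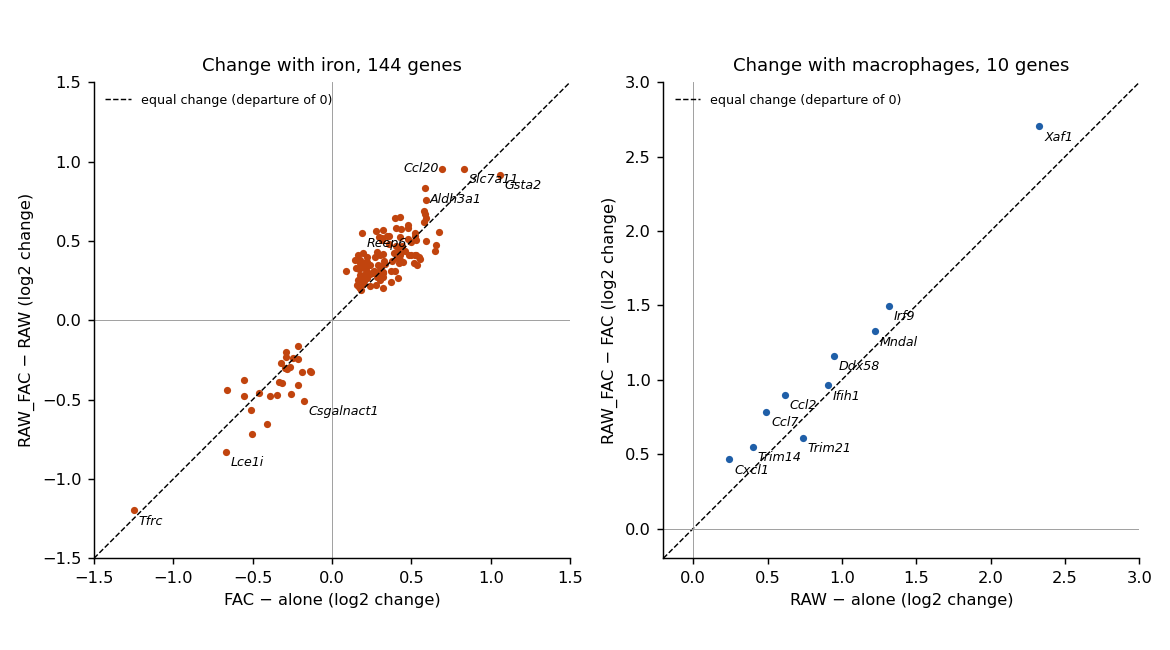
Left: change with iron beside macrophages (RAW_FAC - RAW, vertical axis) against that without them (FAC - alone, horizontal axis) for the 144 genes with an average iron effect. Right: change with macrophages in the presence of iron (RAW_FAC - FAC) against that in its absence (RAW - alone) for the 10 genes with an average macrophage effect. All values are log2, and points on the dashed line have a departure of 0. Tfrc lies close to the line at -1.20 and -1.25, and 9 of the 10 points on the right lie above it.

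The genes with the largest average iron effects, named by rule, lay on both sides of the sum. Gsta2, a glutathione S-transferase, changed by 0.92 with iron beside macrophages and 1.06 without (departure -0.14), and Aldh3a1, an aldehyde dehydrogenase, by 0.83 and 0.59 (0.24). Blvrb, which reduces biliverdin, changed by 0.62 and 0.58 (0.04), and Sdf2l1, a partner of chaperones of the endoplasmic reticulum, by 0.64 and 0.59 (0.05). Among the lower genes Lce1i, a cornified envelope gene, changed by -0.83 and -0.67 (-0.17), Adam12, a metalloprotease, by -0.65 and -0.41 (-0.24), and Ppbp, a platelet-type chemokine, by -0.47 and -0.56 (0.08). Egr1, an immediate early transcription factor, changed by -0.38 and -0.55 (0.17). The widest of the blocked 95% intervals among these 8 genes, that of Gsta2, was -0.66 to 0.39.

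Reep6 and Csgalnact1 were chosen after their values were seen because they had the largest departures of the 144. Reep6, an endoplasmic reticulum membrane protein, had signals of 7.70, 7.94 and 8.39 in RAW_FAC and 7.27, 7.33 and 7.77 in RAW. They were 7.59, 7.75 and 7.99 in FAC and 7.52, 7.40 and 7.84 in alone, so FAC and alone overlapped, as did RAW_FAC and RAW. Its departures were 0.35, 0.26 and 0.47 by number. Csgalnact1, which starts chondroitin sulfate chains, had 4.26, 4.28 and 4.33 in RAW_FAC and 4.90, 4.86 and 4.63 in RAW, against 4.52, 4.61 and 4.51 in FAC and 4.68, 4.90 and 4.61 in alone. The RAW_FAC arrays lay below all others, and its departures were -0.49, -0.29 and -0.21. Its second probe set gave 0.33, the opposite sign. Neither gene passed over all genes in limma with or without the block.

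By function, none of the 28 gene lists held a member that passed in the departure (0 of 536 measured members, against 0% of all genes). Of 24 measured NRF2 targets, 11 rose and 0 fell in the average iron effect with the block, against 0.638% and 0.154% of all genes. Their median change with iron was 0.27 beside macrophages and 0.21 without, and their median departure 0.030, with 17 of 24 above 0. Nqo1, a quinone reductase, changed by 0.55 and 0.52, Srxn1, which repairs peroxiredoxins, by 0.39 and 0.41, and Hmox1, which opens the heme ring, by 0.49 and 0.50. Of these 3 genes the departures were 0.03, -0.02 and 0.00. Srxn1 is shown as the example of an iron-responsive gene with a match to the core of the antioxidant response element, TGACNNNGC on either strand, in the RefSeq window from 250 bases before to 50 after the start of transcription (chr2:152105274-152105573, plus strand, GRCm38.p6). Capitals mark the match.

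Srxn1: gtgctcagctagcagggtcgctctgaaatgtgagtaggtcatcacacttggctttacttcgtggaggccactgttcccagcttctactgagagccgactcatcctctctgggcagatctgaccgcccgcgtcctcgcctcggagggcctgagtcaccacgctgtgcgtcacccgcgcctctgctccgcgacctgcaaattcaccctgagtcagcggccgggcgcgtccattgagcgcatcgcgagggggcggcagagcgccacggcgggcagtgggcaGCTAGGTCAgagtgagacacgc

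That core was present in 18 of 88 genes with a window among the 116 higher ones (20.5%) and in 16.1% of 14453 tested genes with a window. The windows of Slc7a11, Nqo1 and Blvrb held no match.

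Cholesterol synthesis was the list with the highest median change with iron of the 28, 0.35 beside macrophages and 0.39 without. Of its 20 measured genes, 12 rose and 0 fell in the average iron effect with the block, against 0.638% and 0.154% of all genes, and the departure was below 0 in 15 of 20, with a median of -0.040. This sign rested on replicate number 2, where the median was -0.270, against 0.093 and 0.015 at numbers 1 and 3. Idi1, which isomerises isopentenyl diphosphate, had departures of 0.08, -0.41 and -0.13, and Insig1, which retains sterol sensors in the endoplasmic reticulum, -0.12, -0.25 and 0.01. Mvd, which makes isopentenyl diphosphate, had 0.19, -0.30 and 0.35. The numbers thus differed by more than the median departure.

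List counts of the average iron effect here come from the fit with the block, which called 0.638% of all genes higher and 0.154% lower, against 0% and 0.0055% without it. Of 20 genes of the unfolded protein response, 9 rose and 0 fell, and their median change was 0.28 beside macrophages and 0.24 without, with a median departure of 0.040. In the heme list 4 of 17 rose and 0 fell, among them the heme transporter gene Slc48a1, with changes of 0.58 and 0.48 and a departure of 0.11 ± 0.10 (SE with the block). Of 23 genes of iron uptake, storage and export, 2 rose and 1 fell with iron, and the median departure was 0.007. Cp, the ferroxidase ceruloplasmin, changed by 0.53 and 0.34 (departure 0.19 ± 0.11), Slc40a1, the iron exporter ferroportin, by 0.18 and 0.21 (-0.04 ± 0.12), and Fth1, the ferritin heavy chain, by 0.06 and 0.04 (0.01 ± 0.07). Fth1 lay at 14.23 to 14.41, near the highest value of 14.6, which limits what it can show.

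Hamp, which encodes the iron hormone hepcidin, was dim, at 4.58 to 4.88, with a departure of -0.13 ± 0.10. In its list, the BMP-SMAD pathway that controls hepcidin, 15 of 23 genes lay below 0 (median departure -0.051). The share above 0 was 34.8%, against 54.3% of all genes. By number the median was -0.006, 0.011 and -0.029, so the sign was not shared. Id1, a regulator that BMP signals induce, changed with iron by -0.32 beside macrophages and -0.17 without, a departure of -0.15. Leaving out 1 array without the block moved it to between -0.36 (without RAW_FAC replicate 1) and 0.03 (without RAW_FAC replicate 3). Smad7, which restrains the pathway, changed by -0.27 and -0.20 (departure -0.07), and its other probe set gave a departure of -0.40. Hjv, the BMP co-receptor hemojuvelin, had a departure of -0.28, with an unadjusted p of 0.0339 and an adjusted p of 1.00 in limma without the block.

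All 10 genes called in the average macrophage effect were higher with macrophages both with and without iron, which the choice by average change favours. Of the 10, 5 were matched to the interferon response list (Xaf1, Irf9, Trim21, Mndal and Ifih1). Another 3 were in the list of chemokine and NF-kB genes (Ccl2, Ccl7 and Cxcl1). Trim14 was in no list. Ddx58 is the older symbol of Rigi, an interferon list entry that was not matched by name, so list counts leave it out. The change was larger with iron in 9 of the 10 genes (90.0%), against 50.1% of all genes tested. Its median was 0.93 with iron and 0.82 without. These values rest on the brightest probe set of each gene. Another probe set gave a departure of the opposite sign in Xaf1 (-0.24) and Trim14 (-0.21). All probe sets of Ddx58 (lowest 0.01), Mndal, Cxcl1 and Trim21 kept the sign. The median departure was 0.198, and by number 0.22, 0.08 and 0.23, and 0 of the 10 passed in it. Xaf1, an interferon-induced gene, had signals of 7.66, 8.95 and 9.98 in RAW_FAC and 6.42, 6.19 and 5.88 in FAC, and of 6.94, 8.70 and 9.58 in RAW against 5.87, 6.0 and 6.36 in alone. All 6 arrays with macrophages lay above all 6 without, and among them replicate 1 was the lowest and replicate 3 the highest in both groups. The change with macrophages was 2.70 with iron and 2.33 without. The joint change of 2.78 exceeded the sum of 2.41 by 0.38 ± 0.67 (SE with the block), from departures of 0.18, 0.07 and 0.88. The unblocked departure was -0.36 once RAW replicate 1 was left out, and a second probe set gave -0.24, so its sign changed with the array left out and with the probe set.

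Irf9, the DNA-binding subunit of the interferon-activated complex ISGF3, had signals of 8.25, 8.42 and 8.91 in RAW_FAC and 7.15, 7.20 and 6.74 in FAC. They were 7.81, 8.58 and 8.78 in RAW and 7.11, 7.11 and 7.0 in alone. The groups with macrophages did not overlap those without, while RAW_FAC and RAW overlapped. It changed with macrophages by 1.5 with iron and 1.31 without, and its departures were 0.41, -0.25 and 0.38 (mean 0.18, and -0.09 without RAW replicate 1 with the block). Irf9 and Trim21 were the 2 genes called in the average macrophage effect without the block (0.011%; adjusted p = 0.0125 for Irf9 in limma).

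Trim21, an antibody-binding ubiquitin ligase, was the 1 of the 10 genes below the sum. Its signals were 7.01, 7.27 and 7.54 in RAW_FAC and 6.68, 6.54 and 6.77 in FAC, against 7.18, 7.23 and 7.46 in RAW and 6.64, 6.39 and 6.63 in alone. The arrays with macrophages all lay above those without. The change with macrophages was 0.61 with iron and 0.74 without. The departures of -0.21, -0.11 and -0.06 averaged -0.13 ± 0.13 (SE with the block), and both its probe sets lay below 0. Its promoter is shown because it held 2 overlapping matches to the core of the interferon-stimulated response element, GAAA, any 2 bases and GAAA, on either strand (chr7:102565433-102565732, minus strand, GRCm38.p6, RefSeq). Capitals mark the matches.

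Trim21: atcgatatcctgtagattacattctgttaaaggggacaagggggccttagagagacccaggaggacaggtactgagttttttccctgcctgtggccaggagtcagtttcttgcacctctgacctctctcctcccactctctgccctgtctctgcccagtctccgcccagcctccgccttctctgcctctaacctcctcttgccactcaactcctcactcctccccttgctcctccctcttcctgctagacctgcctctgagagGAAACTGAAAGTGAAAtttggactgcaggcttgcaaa

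The core was present in 4 of the 7 genes with a window among the 10 (57.1%), and in 3.63% of the 14453 tested genes with a window. The windows of Xaf1 and Irf9 held no match. A match or its absence describes these letters and is no test of binding.

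The other 4 genes of the set that are no chemokines had departures of 0.06 to 0.21, with wide intervals. Ifih1 and Ddx58, which sense viral RNA, changed with macrophages by 0.96 and 1.16 with iron and by 0.91 and 0.95 without, with departures of 0.06 ± 0.24 and 0.21 ± 0.30 (SE with the block). Mndal, a member of the interferon-inducible HIN-200 family, changed by 1.33 and 1.22 (departure 0.10), and Trim14 by 0.55 and 0.40 (0.15). The second probe set of Trim14 gave -0.21. Rtp4, an interferon-induced gene, had one of the largest macrophage changes, at 2.44 and 2.17. It passed in neither fit of the average effect (adjusted p = 0.0580 in limma with the block). Its departure was 0.27 ± 0.67, and its second probe set gave -0.20. The 38 measured interferon response genes leave out Ddx58, and their list was drawn up with earlier results of these data known. Of the 38, 5 rose with macrophages and 0 fell in the fit with the block, against 0.055% and 0% of all genes. Without the block, Irf9 and Trim21 were called, and with 1 difference per number 0 genes were. The median change was 0.34 with iron and 0.26 without, and the median departure 0.081, with 27 of 38 above 0 (71.1%, against 54.3% of all genes). By number it was 0.059, -0.046 and 0.125, so the sign was not shared. Of 13 genes of MHC class I presentation, 0 passed in any term and the median departure was 0.081, and of 9 immunity-related and guanylate-binding GTPases it was 0.072, both below 0 at number 2.

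Chemokine and NF-kB genes gave the highest median departure of the 28 lists, 0.171 over 27 genes, with 20 above 0 (74.1%). It was above 0 at each number (0.079, 0.137 and 0.278, against 0.025, -0.011 and 0.018 for all genes). With the block, 3 of the 27 rose with macrophages (0.055% of all genes) and 2 rose with iron (0.638% of all genes), and 0 passed in the departure. The list was drawn up with earlier results of these data known. Leaving out all arrays of 1 number, with the block, gave medians of 0.108 to 0.172. Leaving out 1 array, which unbalances the numbers, gave -0.061 without RAW_FAC replicate 2, -0.021 without FAC replicate 1, -0.00849 without RAW replicate 1, 0.0685 without RAW_FAC replicate 3, 0.0713 without alone replicate 2 and 0.0989 without RAW replicate 3. Without any of the other arrays it was 0.134 to 0.237.

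Cxcl1, a neutrophil chemokine, was the 1 gene called in both average effects. Its signals were 11.55, 13.16 and 12.85 in RAW_FAC, 11.25, 12.85 and 12.53 in RAW, 11.08, 12.70 and 12.39 in FAC and 11.09, 12.59 and 12.22 in alone. Replicate 1 was more than 1 log2 unit below the others in every group, so the groups overlapped widely, yet within each number RAW_FAC was the highest. The joint change was 0.55, against a sum of 0.33. The departures of 0.32, 0.20 and 0.14 averaged 0.22 ± 0.07 with the block (95% interval 0.06 to 0.39; unadjusted p = 0.0133 in limma, adjusted p = 0.999), and the interval without the block was -1.43 to 1.87. Its 3 probe sets gave 0.04 to 0.25. Leaving out 1 array gave 0.18 to 0.26 with the block, and -0.27 (without FAC replicate 1) to 0.70 (without RAW_FAC replicate 1) without it.

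Ccl2, which attracts monocytes, had signals of 11.15, 12.64 and 12.79 in RAW_FAC, 10.66, 12.55 and 12.18 in RAW, 10.59, 11.64 and 11.65 in FAC and 10.51, 11.57 and 11.47 in alone. At each number the 2 arrays with macrophages lay above the 2 without. The joint change of 1.01 stood against a sum of 0.73, and the departures were 0.41, 0.02 and 0.42. Left out 1 at a time, arrays moved its departure of 0.28 to between 0.12 (without RAW replicate 1) and 0.47 (without RAW replicate 2) with the block, and to between -0.28 (without RAW replicate 1) and 0.80 (without RAW_FAC replicate 1) without it. Its relative Ccl7 had a joint change of 0.69 and a sum of 0.40, with departures of 0.19, 0.31 and 0.38 (mean 0.29 ± 0.16, SE with the block), and unblocked values of -0.12 (without RAW replicate 1) to 0.75 (without RAW_FAC replicate 1). Ccl20, the ligand of the receptor CCR6, was called in the iron effect only. Its signals were 8.97, 11.48 and 10.74 in RAW_FAC, 8.32, 10.05 and 9.98 in RAW, 8.59, 10.76 and 10.04 in FAC and 8.19, 9.58 and 9.54 in alone. RAW_FAC was the highest at each number. The joint change was 1.29 and the sum 1.03, and the departures of 0.26, 0.25 and 0.26 had an interval of -0.28 to 0.79 with the block. Without any 1 array the Ccl20 departure was 0.06 (without RAW_FAC replicate 2) to 0.46 (without alone replicate 2) with the block, and -0.34 (without FAC replicate 1) to 0.97 (without RAW_FAC replicate 1) without it.

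The promoters of Cxcl1 and Ccl20 are shown because both genes are known NF-kB targets and lay above the sum at every number. Capitals mark matches to a simplified NF-kB site, GGG, any 3 bases and TTCC, on either strand, some of which overlap, in the same RefSeq window (GRCm38.p6, both on the plus strand, Cxcl1 at chr5:90890995-90891294 and Ccl20 at chr1:83116516-83116815).

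Cxcl1: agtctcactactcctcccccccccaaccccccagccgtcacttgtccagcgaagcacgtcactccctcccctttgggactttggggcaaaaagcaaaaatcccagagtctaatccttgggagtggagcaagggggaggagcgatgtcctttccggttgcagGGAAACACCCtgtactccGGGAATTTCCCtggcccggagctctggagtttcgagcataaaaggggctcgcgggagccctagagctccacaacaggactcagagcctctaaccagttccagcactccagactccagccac

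Ccl20: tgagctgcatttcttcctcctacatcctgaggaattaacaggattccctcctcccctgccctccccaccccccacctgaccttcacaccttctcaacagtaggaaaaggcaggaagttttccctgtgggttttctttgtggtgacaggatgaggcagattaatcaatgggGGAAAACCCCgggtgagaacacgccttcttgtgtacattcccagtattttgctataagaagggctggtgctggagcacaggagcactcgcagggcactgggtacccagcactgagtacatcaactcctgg

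The simplified site was present in 10 of 20 genes of the list with a window (50%) and in 6.83% of tested genes with a window. The list was made up of NF-kB response and chemokine genes, so its choice favours a high share. The share is therefore no test of these data.

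Of the other 5 chemokines of the list, 4 had departures above 0 and 1 below. Cxcl2 and Cxcl10, chosen after their values were seen, had departures of 0.17 and 0.16, and in each the numbers differed in sign. Cxcl5 had signals of 4.13, 5.53 and 4.69 in RAW_FAC, 4.13, 4.08 and 3.98 in RAW, 3.88, 4.67 and 4.39 in FAC and 4.09, 4.26 and 4.31 in alone. It was dim on every array, with its highest signal, 5.53, in RAW_FAC replicate 2 still below the median of all genes, 6.82. Its departures were 0.21, 1.05 and 0.63 (mean 0.63 ± 0.30, SE with the block, and unadjusted p = 0.0640 in limma). Without RAW_FAC replicate 2 it was 0.32 with the block and 0.25 without. Ccl5, which attracts T cells and was chosen after its values were seen, had 6.56, 5.99 and 4.78 in RAW_FAC and 6.75, 5.88 and 5.82 in RAW, against 6.92, 5.90 and 5.71 in FAC and 6.77, 5.50 and 5.58 in alone. RAW_FAC replicate 3 was the lowest array. The departure of Ccl5 was -0.60 and lay below 0 at each number. Leaving out 1 array without the block, which unbalances the numbers, gave -1.01 (without alone replicate 1) to -0.10 (without RAW_FAC replicate 3). Lif, a cytokine of the interleukin 6 family, had departures of 0.42, 0.24 and 0.28. Nfkbie, an NF-kB inhibitor chosen after its values were seen, had 0.45, 0.33 and 0.33. Icam1, an adhesion molecule, had 0.03, 0.18 and 0.42, and Cx3cl1, a membrane-bound chemokine, 0.26, -0.11 and 0.40. Other genes of the list lay close to 0, among them Nfkbia (0.03), Traf1 (0.03), Ptgs2 (-0.01) and Birc3 (-0.06), also chosen after their values were seen. Over the whole list 20 genes lay above 0 and 7 below.

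**Figure D4:**
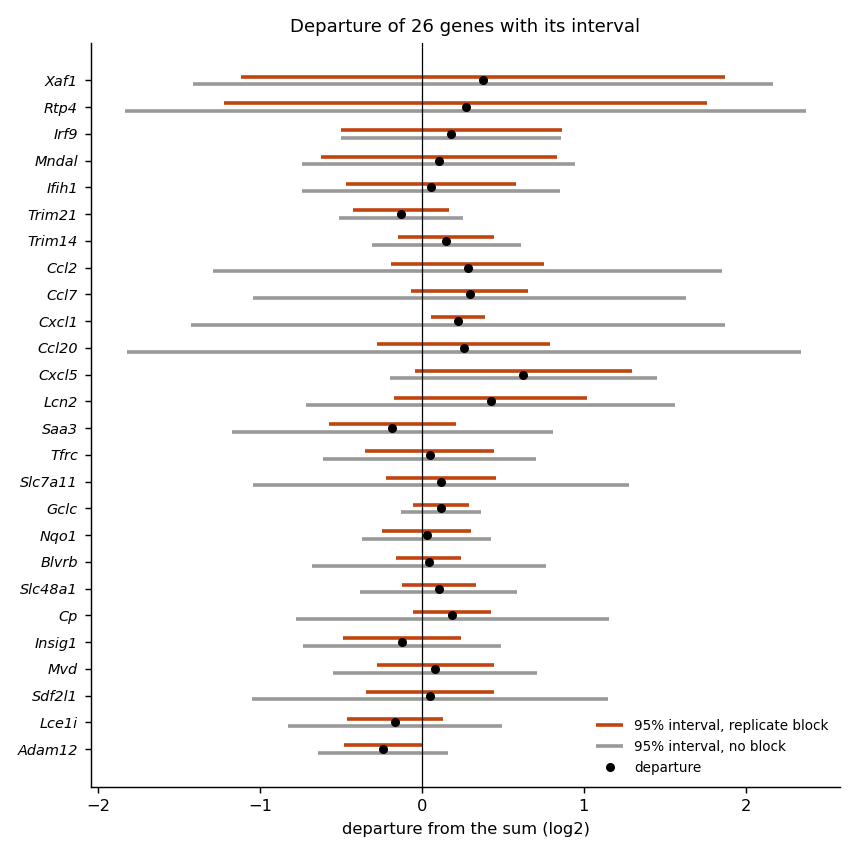
Departure from the sum (log2, horizontal axis) of 26 genes picked from those described in the text (vertical axis). Black points are the departures, and the bars are 95% intervals with the replicate block (orange) and without it (grey). All grey bars cross 0, and of the orange bars that of Cxcl1 lies wholly above 0, at 0.06 to 0.39. The blocked interval also left out 0 in genes not shown. Among them were Lbp (0.04 to 0.53), Reep6 (0.12 to 0.60) and Csgalnact1 (-0.56 to -0.09).

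Acute phase genes lay on both sides of the sum. Lcn2, which binds iron-carrying siderophores, had signals of 6.54, 6.88 and 7.57 in RAW_FAC and 6.16, 5.67 and 6.62 in RAW, against 6.65, 5.87 and 6.97 in FAC and 6.29, 5.29 and 6.65 in alone. All groups overlapped, and its departures were 0.01, 0.64 and 0.63 (mean 0.42, and 0.17 without RAW_FAC replicate 2 with the block). Saa3, an acute phase apolipoprotein, had changes of 0.65 with iron and 0.62 with macrophages, a joint change of 1.09 and a departure of -0.18 ± 0.18 (SE with the block). Set against the sum of the single changes in signal before the log was taken, its joint level was 0.08 higher on the log2 scale, so its direction depends on the scale. Lbp, which binds bacterial lipopolysaccharide, changed with iron by 0.56 beside macrophages and 0.28 without, with departures of 0.21, 0.25 and 0.39 (unadjusted p = 0.0271 in limma with the block, adjusted p = 0.999). The 22 genes of the list had a median departure of 0.038.

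Mycn had the lowest departure of all genes and was named after its values were seen. Its signals were 7.24, 7.48 and 7.68 in RAW_FAC, 8.87, 7.61 and 7.83 in RAW, 6.99, 7.03 and 7.30 in FAC and 6.85, 7.07 and 7.14 in alone. RAW replicate 1 stood above the other 11 arrays, and the departures were -1.77, -0.09 and -0.31. Without that array, and without the block, the departure was -0.34. Rpl27a, a ribosomal protein gene named for the same reason, had a departure of -0.54 that became -0.12 without RAW_FAC replicate 3. Eps8l3, an actin regulator of the Eps8 family, also named after its values were seen, had 0.60, 0.45 and 0.70, with an unadjusted p of 0.00281 in limma with the block and of 0.0907 without it.

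The 10 genes with the smallest unadjusted p above the sum were Ing4, H60c, Tspan18, Adig, Cabp5, C8g, Slc9a3, 1110020A21Rik, Cyp2d10 and Rcvrn. The 10 below it were Nhlh2, Vwa2, Etohd2, Abca14, Trim71, Fam124b, Cyp3a11, Scg3, 8430437L04Rik and Terb2. Their p without the block was 0.000161 to 0.00602 and none passed (adjusted p = 1.00 in limma). Each had the same sign at 3 of 3 numbers, which choice by p favours, and absolute departures of 0.32 to 0.54. These values come from the brightest probe set of each gene. Another probe set gave the opposite sign in Trim71 (0.38), Slc9a3 (-0.22), Tspan18 (-0.14) and Etohd2 (0.07). In Cabp5 another gave 0.05, and the rest of the 20 had 1 probe set each. All 20 had mean signals below the median of all genes, 3.47 to 6.02 against 6.82, as had 93.0% of the 540 genes at an unadjusted p below 0.05, and 0 of the 20 was among the iron or macrophage genes above. Nhlh2, a neuronal transcription factor, had 3.64, 3.49 and 3.41 in RAW_FAC, 3.87, 3.81 and 3.74 in RAW, 3.79, 3.85 and 3.72 in FAC and 3.52, 3.51 and 3.60 in alone. All 6 arrays of RAW and FAC, the groups with 1 factor, lay above the 6 arrays with both factors or neither. Ing4, a chromatin reader, had 4.28, 4.25 and 4.41 in RAW_FAC and 4.06, 4.06 and 4.10 in RAW, against 4.0, 4.0 and 4.08 in FAC and 4.18, 4.50 and 4.30 in alone. RAW and FAC both lay below RAW_FAC and alone. Choice by p in this contrast favours such a separation in Nhlh2 and Ing4, so it is no further support.

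Of all 28 lists, those described above included, 7 had a median departure above 0 at each number and 1 below 0 at each. In 20 lists the numbers differed in sign. Cell cycle genes had the highest share above 0, 24 of 27 (88.9%), with a median of 0.041 and medians of 0.084, -0.001 and 0.040 by number. Plk1, a mitotic kinase, was 0.25. Xenobiotic response genes had a median of 0.082 over 18 genes, ATF4 and amino acid response genes 0.052 over 24, hypoxia response genes 0.037 over 20 and respiratory chain genes 0.014 over 23. Ferroptosis genes, with a median of 0.005 over 17, were the 1 list below 0 at each number. The lowest median of all, -0.074, was that of 8 lymphocyte markers, whose mean signals were low (median 5.11). The 24 macrophage markers had a median of -0.001, with 12 above 0.

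**Figure D5:**
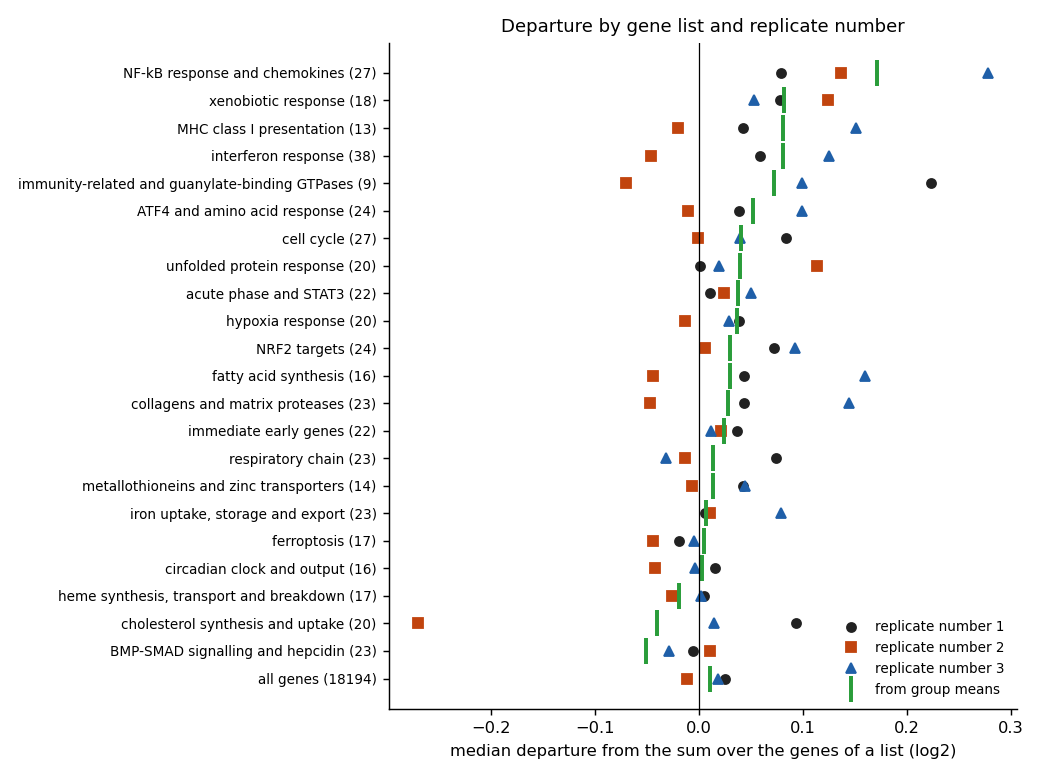
Median departure from the sum (log2, horizontal axis) over the genes of 22 functional lists and over all genes (vertical axis, number of genes measured in brackets). Symbols give the median at each replicate number and the green bar the median of the departures from group means, which can lie outside the range of the 3. The NF-kB and chemokine list lies farthest right, at 0.079, 0.137 and 0.278, and cholesterol synthesis has 1 number at -0.270.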

How the data were processed

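RNA samples of BNL CL.2 cells, 3 in each of 4 groups, were measured on 12 Affymetrix arrays. The deposited values are log2 signals per probe set, made by the authors with RMA and affy per the submitters' processing notes, with versions not given in the sources used here. RMA normalizes all arrays to 1 distribution, so a shift of most genes at once would not be seen. Groups and replicate numbers came from the titles.

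Of 45101 probe sets, 34958 had 1 gene symbol, 932 several and 9211 none. For each of 18194 genes the brightest probe set by mean signal was kept (9012 genes had more than 1). A mean per group was fitted with limma 3.58.1 in R 4.3.3, and the departure was tested as a contrast, two-sided, with Benjamini-Hochberg adjustment over all genes and a threshold of 0.05. Average effects of iron and of macrophages came from the same fit. Residuals of arrays with the same replicate number correlated at 0.26 to 0.53 in 18 pairs, against -0.35 to -0.015 in 36 pairs of different number and group. The numbers were therefore treated as pairing the arrays, from the data, since the titles do not say what they stand for, and a fit with the number as a block stands beside the first.

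Genes were named by rule: the 10 smallest p in each direction of the departure, the 10 largest average effects of iron and of macrophages in each direction with the block, a list of fixed genes, and up to 4 genes per list by p. Genes outside it are marked as chosen after their values were seen. The members, the lists and the rule were chosen with earlier results of these data known. Alternatives covered the block, 1 difference per number, array weights, dim genes, the probe set choice, trend and robust variance, a linear scale, a minimum change and leaving out arrays. Promoter windows came from RefSeq (GRCm38.p6). Python 3.11.15, numpy 2.4.6, pandas 2.3.3 and matplotlib 3.10.9 were used.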

Additional observations from a re-analysis of the deposited data

How the results depend on the processing

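The count of genes departing from the sum was 0 in each direction under every alternative run, and 0 of the 205 named genes passed in any, although with dim genes left out 100 of the 205 were tested. The counts of the average effects moved. With the replicate block, which pairs arrays of the same number, 116 genes were higher and 28 lower with iron and 10 higher with macrophages, against 0, 1 and 2 without it. With 1 difference per number, 5 were higher with iron and 0 with macrophages. Array weights, leaving out dim genes, trend and robust variance and the linear scale each gave 1 higher with iron. The mean of a gene's probe sets, the probe set with the highest SD and trend and robust variance each gave 0 lower. With macrophages, trend and robust variance gave 1 higher, the linear scale 0 and a minimum log2 change of 1 gave 1. Chosen after seeing the data, the linear scale with the block gave 67 higher and 14 lower with iron and 0 higher with macrophages. Also chosen then, the block without number 1 gave 1 higher with iron, and 44 higher and 9 lower with macrophages. Without number 2 it gave 0 higher and 0 lower with iron and 0 higher with macrophages, and without number 3 it gave 45 and 15 with iron and 0 with macrophages. Leaving out 1 array gave 0 to 1 higher and 0 to 1 lower with iron and 0 to 12 higher with macrophages, and with the block 37 to 88, 7 to 23 and 0 to 24, with 0 to 4 lower with macrophages. The cause of these shifts was not tested. With 3 arrays per group, small departures cannot pass over all genes, and dim genes have signal near background.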
